A study of Homo sapiens with 14 samples.

Results

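The small leucine-rich proteoglycans are secreted proteins with a core of leucine-rich repeats, and most carry chondroitin, dermatan or keratan sulphate chains. Their transcripts were followed in cartilage pellets grown from the human embryonic stem cell line WA01, also called H1, over a course of chondrogenic culture. The family was taken as 10 genes given by symbol (*DCN*, *BGN*, *ASPN*, *FMOD*, *LUM*, *PRELP*, *OMD*, *EPYC*, *OGN* and *CHAD*), each matched to the Ensembl identifier of its row. All 10 were found among the 60587 genes of each table, and all 10 passed the filter on low counts that left 17838 genes for testing. Whole pellets kept in chondrogenic medium, with no other treatment named in the labels, gave 4 libraries at day 21, 5 at day 30 and 5 at day 45. All libraries derive from this 1 cell line. The labels do not say whether replicates were separate cultures, so each p-value reflects only how far these libraries scatter, and that scatter may be technical.

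In cartilage these proteins sit on the surface of collagen fibrils and set how fibrils grow, pack and join to the rest of the matrix. Decorin and biglycan also bind growth factors of the TGF-beta family, and fibromodulin, lumican and osteomodulin carry sulphated tyrosines near one end. Epiphycan is known from growth plate cartilage, and chondroadherin links chondrocytes to collagen through an integrin, without the chains of its relatives.

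The libraries held between 18183776 and 33660704 expected counts. The summed level of 9 chondrocyte markers, in CPM (counts scaled to a common library size, here by TMM), averaged 38324, 157647 and 219402 CPM at days 21, 30 and 45, and all 9 rose at day 30 against day 21. *COL2A1* made up most of that sum (167060 CPM at day 45). At day 45 against day 30, 2 of the 9 rose and 3 fell (*MATN1*, *CNMD* and *COL9A1*, at log2 -3.21, -1.95 and -0.65), and at day 45 against day 21, 7 rose and *CNMD* fell (log2 -0.91). Endothelial and blood markers were near 0: *CDH5* and *HBG1* had no count in any library, *VWF* reached 0.314 CPM and *PTPRC* reached 0.115 CPM, while *CD34* ran between 5.18 and 19.1 CPM. *MYOD1* and *MYOG* reached 0.0562 and 0.152 CPM. The summed level of 9 fibroblast and perichondrium markers averaged 31217, 28830 and 32055 CPM; which cells these transcripts came from was not tested. In day 30 replicates 3 to 5, expression deviated with transcript length (Spearman rho -0.42, -0.47 and -0.43 over 17612 genes), against -0.04 and -0.07 in the other two day 30 libraries and 0.1 to 0.22 at the other days. Day 45 replicate 1 is titled day 45 while its treatment label gives 30 days; it was kept at day 45, and results that depend on its place are named.

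All 10 genes changed at day 45 against day 21: *FMOD*, *PRELP*, *BGN*, *DCN*, *OMD* and *CHAD* rose, and *EPYC*, *LUM*, *OGN* and *ASPN* fell (edgeR quasi-likelihood test, Benjamini-Hochberg adjusted p below 0.05 over all genes tested). The fold changes ran between 4.92-fold higher for *PRELP* and 3.18-fold lower for *OGN*. In this comparison 57.7% of all genes tested passed, 27.1% higher and 30.5% lower, so a call was common in these libraries. In CPM the libraries of the 2 days did not overlap for 9 members, 6 higher and 3 lower at day 45; over all genes tested this held for 51.5%, 25.3% higher and 26.2% lower. The median log2 change of the members was 1, and that of all genes tested was -0.05. In bulk tissue, fewer cells of a type and less RNA per cell cannot be told apart.

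**Figure D1:**
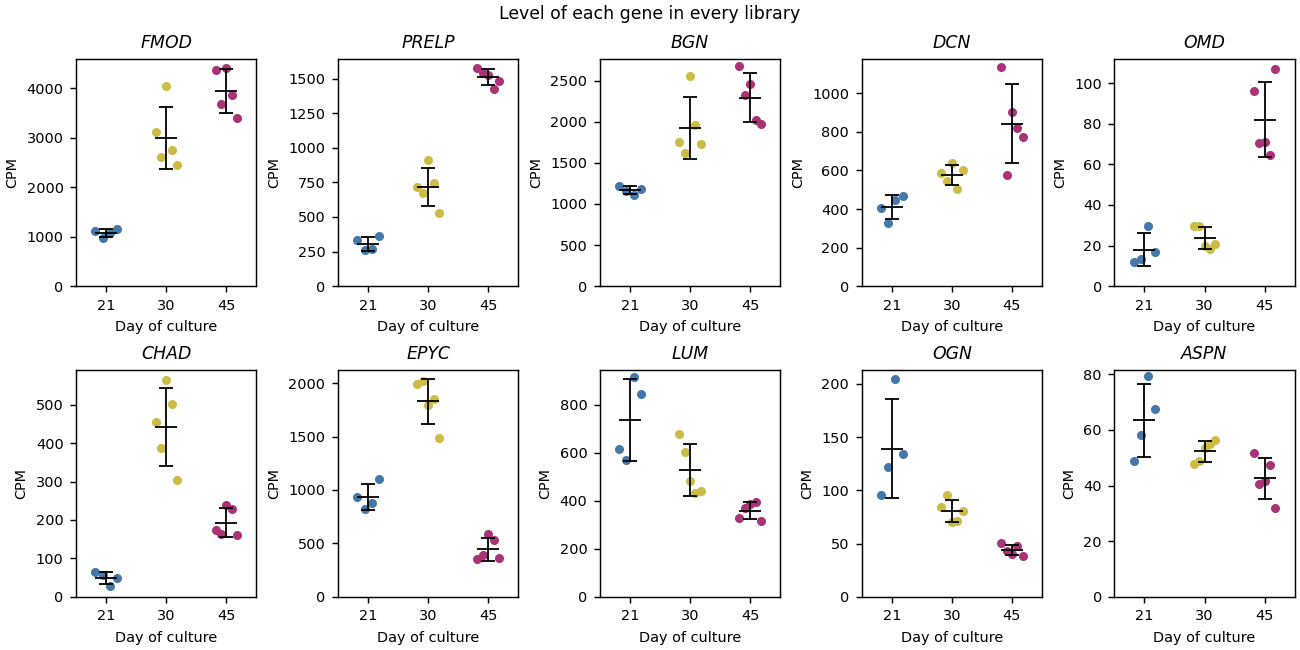
Level of each of the 10 genes in TMM-scaled CPM (vertical axis, linear, from 0) in every library (points) at days 21, 30 and 45 of culture, with the mean (long bar) and SD. *PRELP* lies between 1427 and 1575 CPM at day 45, above every earlier library, while *CHAD* and *EPYC* are highest at day 30.

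*FMOD* encodes fibromodulin, a keratan sulphate proteoglycan that binds collagen fibrils and the cross-linking enzyme lysyl oxidase. It had 1121, 969, 1069 and 1161 CPM at day 21, 3120, 2617, 4040, 2764 and 2457 CPM at day 30, and 4382, 3679, 4422, 3867 and 3410 CPM at day 45. Every library of the later days stood above all 4 of day 21, and the ranges of days 30 and 45 overlapped. *FMOD* rose 2.78-fold at day 30 against day 21 (log2 1.47 ± 0.15 SE, adjusted p = 4.13e-07, edgeR) and 1.32-fold at day 45 against day 30 (log2 0.40 ± 0.14, adjusted p = 0.0193, edgeR). The later of these calls did not hold without day 45 replicate 3 (log2 0.35, adjusted p = 0.0513, edgeR), with only the 2 days fitted (log2 0.37, adjusted p = 0.0522, edgeR) or with day 45 replicate 1 placed at day 30 (log2 0.25, adjusted p = 0.244, edgeR).

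*PRELP* encodes a proline- and arginine-rich member that binds collagen and heparan sulphate. It had 334, 264, 266 and 365 CPM at day 21, 718, 670, 913, 746 and 527 CPM at day 30, and 1575, 1541, 1523, 1427 and 1485 CPM at day 45. No 2 days overlapped, and the day 45 libraries were tightly grouped. It rose 2.33-fold at day 30 against day 21 (log2 1.22 ± 0.14, adjusted p = 2.32e-06, edgeR) and 2.11-fold at day 45 against day 30 (log2 1.08 ± 0.13, adjusted p = 4.85e-06, edgeR), the 2 steps being of like size.

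*BGN* and *DCN* encode biglycan and decorin, which carry chondroitin or dermatan sulphate chains. *BGN* had 1221, 1154, 1106 and 1186 CPM at day 21, 1751, 1619, 2554, 1964 and 1728 CPM at day 30, and 2682, 2328, 2458, 2018 and 1967 CPM at day 45. The day 21 libraries stood below all others, and days 30 and 45 overlapped. *BGN* rose 1.65-fold at day 30 against day 21 (log2 0.72 ± 0.14, adjusted p = 0.000345, edgeR), and the difference between days 45 and 30 did not pass (log2 0.25 ± 0.13, adjusted p = 0.108, edgeR). Without day 30 replicate 3, its highest library of that day, the same difference passed (log2 0.37, adjusted p = 0.0124, edgeR). It also passed without day 30 replicates 3 to 5 (log2 0.43, adjusted p = 0.0139, edgeR). With an offset for transcript length and GC content it was 0.6 (adjusted p = 0.000161, edgeR). On the log2(TPM + 1) scale it was 0.29 (adjusted p = 0.0326, limma).

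*DCN* had 404, 326, 446 and 466 CPM at day 21, 589, 546, 639, 506 and 603 CPM at day 30, and 1137, 575, 903, 820 and 774 CPM at day 45. Day 45 replicate 2 fell within the day 30 range, and day 45 replicate 1, the library with conflicting labels, was the highest. *DCN* rose 1.40-fold at day 30 against day 21 (log2 0.49 ± 0.16, adjusted p = 0.0153, edgeR) and 1.46-fold at day 45 against day 30 (log2 0.55 ± 0.15, adjusted p = 0.0052, edgeR). With day 45 replicate 1 placed at day 30 the later difference was 0.20 (adjusted p = 0.471, edgeR), and with an offset for transcript length and GC content it was 0.22 (adjusted p = 0.296, edgeR). The earlier call did not hold without day 21 replicate 2 (log2 0.39, adjusted p = 0.0657, edgeR) or without day 30 replicates 3 to 5 (log2 0.46, adjusted p = 0.089, edgeR).

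*OMD* encodes osteomodulin, also called osteoadherin, a keratan sulphate proteoglycan known mainly from bone matrix. It had 11.7, 13.5, 29.6 and 16.7 CPM at day 21, 29.5, 29.5, 19.7, 18.5 and 20.7 CPM at day 30, and 96.2, 70.7, 71.0, 64.7 and 107 CPM at day 45. Every day 45 library stood above all earlier ones, while days 21 and 30 overlapped through day 21 replicate 3. *OMD* rose 3.47-fold at day 45 against day 30 (log2 1.80 ± 0.23, adjusted p = 1.12e-05, edgeR). Its difference between days 30 and 21 did not pass (log2 0.40 ± 0.25, adjusted p = 0.183, edgeR) but did without day 21 replicate 3 (log2 0.75, adjusted p = 0.00633, edgeR). Of 4 osteoblast markers tested at day 45 against day 21, 2 rose, *SP7* (9.62 CPM at day 45, against 0.781 CPM at day 21; adjusted p = 2.67e-08, edgeR) and *ALPL* (5.99 against 0.138 CPM; adjusted p = 4.03e-05, edgeR). *DMP1*, most of the markers' sum, fell (24.3 against 139 CPM; adjusted p = 4.11e-06, edgeR), *BGLAP* did not pass, and *IBSP*, at most 0.742 CPM, was too low to test. The part of such cells in the level of *OMD* was not tested.

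*CHAD* and *EPYC*, the genes of chondroadherin and epiphycan, were highest at day 30. *CHAD* had 65.6, 55.5, 28.2 and 48.3 CPM at day 21, 456, 388, 565, 503 and 304 CPM at day 30, and 173, 164, 239, 228 and 162 CPM at day 45. The 3 days did not overlap. *CHAD* rose 8.97-fold at day 30 against day 21 (log2 3.17 ± 0.24, adjusted p = 2.16e-08, edgeR) and fell 2.29-fold at day 45 against day 30 (log2 -1.20 ± 0.20, adjusted p = 0.000121, edgeR). Exons of *CHAD* overlap those of *ACSF2*, a gene of the opposite strand that averaged 34, 57.4 and 29.8 CPM at days 21, 30 and 45. The library kit named in the labels does not keep strand, so reads from the shared exons cannot be told apart.

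*EPYC* had 935, 820, 879 and 1101 CPM at day 21, 1990, 2016, 1799, 1854 and 1487 CPM at day 30, and 353, 391, 584, 529 and 361 CPM at day 45. The 3 days did not overlap, with day 45 lowest. *EPYC* rose 1.96-fold at day 30 against day 21 (log2 0.97 ± 0.16, adjusted p = 7.34e-05, edgeR) and fell 4.12-fold at day 45 against day 30 (log2 -2.04 ± 0.15, adjusted p = 2.84e-08, edgeR). With day 45 replicate 1 placed at day 30, the earlier rise did not pass (log2 0.76, adjusted p = 0.0801, edgeR).

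The sequences upstream of *EPYC* and *CHAD* are shown because both transcripts were highest at day 30, and that of *PRELP* because it rose at both steps. They come from the RefSeq table for GRCh38.p14, which gave a 250-base upstream window for 7 of the 10 members (*BGN*, *FMOD*, *PRELP*, *EPYC*, *OGN*, *ASPN* and *CHAD*); bases inside a GENCODE 29 exon are left out of what is printed. Each reads 5′ to 3′ on the gene's strand, with matches in capitals.
EPYC, chr12:91005027-91005222, minus strand: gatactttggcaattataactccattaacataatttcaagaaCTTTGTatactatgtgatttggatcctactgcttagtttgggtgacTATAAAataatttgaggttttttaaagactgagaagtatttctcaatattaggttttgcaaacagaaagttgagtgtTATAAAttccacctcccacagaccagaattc
CHAD, chr17:50468967-50469130, minus strand: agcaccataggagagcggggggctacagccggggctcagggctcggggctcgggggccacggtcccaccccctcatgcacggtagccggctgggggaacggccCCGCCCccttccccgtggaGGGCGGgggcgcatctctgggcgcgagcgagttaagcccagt
PRELP, chr1:203475556-203475805, plus strand: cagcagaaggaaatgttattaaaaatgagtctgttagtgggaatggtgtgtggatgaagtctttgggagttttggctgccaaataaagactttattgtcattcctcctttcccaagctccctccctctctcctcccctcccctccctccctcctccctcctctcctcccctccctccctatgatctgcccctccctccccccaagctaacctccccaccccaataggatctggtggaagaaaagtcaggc

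The letters searched on both strands were TATAAA (the TATA box), ACAAAG (a core shared by SOX factors) and GGGCGG (the GC box), which do not overlap one another in these windows. In the *EPYC* sequence the capitals mark TATAAA at 162 to 157 and at 85 to 80 bases upstream of the start, and ACAAAG on the other strand at 208 to 203. In the *CHAD* sequence they mark GC boxes at 147 to 142 and at 128 to 123 bases upstream. The bases not printed held a further ACAAAG on the other strand at 6 to 1 bases in *EPYC*, and TATAAA at 29 to 24 and a GC box at 21 to 16 bases in *CHAD*, while the *PRELP* window held none of the searched letters. TATAAA was present in 4 of the 7 members with a window (*FMOD*, *EPYC*, *OGN* and *CHAD*) and in 10.7% of all 35116 windows. In *FMOD* and *OGN* it lay on the other strand only. Members were counted by gene, with 2 overlapping windows for *OGN*, while the shares of all windows count each window. ACAAAG was present in *EPYC* alone of the 7, against 13.7% of all windows, and GGGCGG in 3 of the 7 (*BGN*, *FMOD* and *CHAD*), against 42.6%. The GC content was 35.6% in the whole *EPYC* window and 72.8% in that of *CHAD*, with a median of 58% over all windows. These matches describe the letters and show no binding.

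*LUM*, *OGN* and *ASPN* were lower at day 45 than at day 21. *LUM* encodes lumican, a keratan sulphate proteoglycan that in mice limits the thickness of collagen fibrils. It had 615, 572, 917 and 844 CPM at day 21, 680, 604, 481, 431 and 443 CPM at day 30, and 330, 370, 385, 395 and 315 CPM at day 45. All day 45 libraries were below all earlier ones, while days 21 and 30 overlapped. *LUM* fell 1.40-fold at day 30 against day 21 (log2 -0.48 ± 0.16, adjusted p = 0.0169, edgeR) and 1.47-fold at day 45 against day 30 (log2 -0.56 ± 0.15, adjusted p = 0.00505, edgeR).

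The earlier *LUM* difference lay close to the threshold with TMM scaling. It did not pass without day 21 replicate 3 (log2 -0.36, adjusted p = 0.0778, edgeR), without day 21 replicate 4 (log2 -0.41, adjusted p = 0.0594, edgeR) or without day 30 replicates 3 to 5 (log2 -0.20, adjusted p = 0.349, edgeR). On the log2(TPM + 1) scale it passed (log2 -0.88, adjusted p = 0.000817, limma), and the TPM ranges of the 2 days did not overlap. The later call did not hold with day 45 replicate 1 placed at day 30 (log2 -0.43, adjusted p = 0.0854, edgeR).

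*OGN* encodes osteoglycin, or mimecan, which is found in bone and other connective tissues. It had 95.8, 122, 205 and 134 CPM at day 21, 84.4, 95.6, 70.2, 71.3 and 80.2 CPM at day 30, and 50.3, 42.6, 39.8, 47.6 and 38.7 CPM at day 45. The 3 days did not overlap, though the lowest day 21 library was only just above the highest day 30 library. *OGN* fell 1.73-fold at day 30 against day 21 (log2 -0.79 ± 0.17, adjusted p = 0.000725, edgeR) and 1.83-fold at day 45 against day 30 (log2 -0.88 ± 0.16, adjusted p = 0.000224, edgeR). Without day 30 replicates 3 to 5 the earlier difference was -0.63 (adjusted p = 0.0534, edgeR).

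*ASPN* encodes asporin, which has a stretch of aspartates and binds collagen and TGF-beta. It had 48.7, 58.2, 79.3 and 67.4 CPM at day 21, 47.9, 48.9, 53.4, 54.9 and 56.5 CPM at day 30, and 51.7, 40.7, 41.5, 47.2 and 32.0 CPM at day 45. Each pair of days overlapped. It fell 1.49-fold at day 45 against day 21 (log2 -0.57 ± 0.14, adjusted p = 0.00184, edgeR), the smallest change of the 10 over that span with TMM scaling, though not on the log2(TPM + 1) scale, where *DCN* (0.46) and *BGN* (0.52) changed less than *ASPN* (-0.99). Neither shorter step passed in the main fit (adjusted p = 0.1 for day 30 against day 21 and 0.0648 for day 45 against day 30, edgeR), but both lay near the threshold. The later step passed with day 45 replicate 1 placed at day 30 (log2 -0.37, adjusted p = 0.0397, edgeR) or left out (log2 -0.37, adjusted p = 0.0284, edgeR), among other settings. The earlier step passed without day 21 replicate 1 (log2 -0.39, adjusted p = 0.0255, edgeR) and with the length and GC offset (log2 -0.39, adjusted p = 0.0254, edgeR), among others.

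In day 21 replicate 3, *LUM*, *OGN*, *ASPN* and *OMD* were all above the other 3 day 21 libraries, at 1.35, 1.75, 1.36 and 2.12 times their mean, while *CHAD* and *BGN* were below them, at 0.5 and 0.932 times. Of the 9 chondrocyte markers, 8 were also below the other day 21 libraries there. Of the 9 fibroblast and perichondrium markers 1 was above (*POSTN*, 7181 CPM), 4 were below and 4 lay within. Among the 13 collagen genes treated further on, 8 were below, 1 was above and 4 lay within. Of the protease genes 5 were below and 1 was above, and of the growth factor and receptor genes 3 were below and 5 above. The share of all genes that were lowest in this library was not computed. Over the days, 1 of the 9 fibroblast and perichondrium markers rose and 3 fell at day 45 against day 21 (edgeR), and the sum of 4 tendon markers averaged 117, 74.5 and 57.9 CPM at days 21, 30 and 45. Of these 4, *SCX*, *TNMD* and *MKX* fell at day 45 against day 21 (log2 -3.46, -1.93 and -0.46), and *THBS4* rose (log2 1.43, adjusted p = 0.00232, edgeR). The part of such cells in the levels of these genes was not tested.

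At day 30 against day 21, 8 of the 10 members passed, 6 higher (*FMOD*, *PRELP*, *BGN*, *DCN*, *CHAD* and *EPYC*) and 2 lower (*LUM* and *OGN*), where 54.4% of all genes tested passed, 27.2% higher and 27.1% lower. The CPM ranges of these days did not overlap for 7 members, 6 higher and 1 lower at day 30, and for 42.4% of all genes tested, 20% higher and 22.4% lower. In TPM the ranges did not overlap for 3 members higher and 3 lower, while *DCN*, *BGN*, *EPYC* and *OMD* overlapped. The share of all genes was not computed in TPM. The median log2 change was 0.60 for the members and 0.02 for all genes tested. Without day 30 replicates 3 to 5, 5 members passed, and so did 7645 of the 18509 genes then tested.

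At day 45 against day 30, 8 members passed, 4 higher (*FMOD*, *PRELP*, *DCN* and *OMD*) and 4 lower (*CHAD*, *EPYC*, *LUM* and *OGN*), where 56.3% of all genes tested passed, 27.6% higher and 28.7% lower. The CPM ranges did not overlap for 6 members, 2 higher and 4 lower at day 45, and for 38.3% of all genes tested, 19.8% higher and 18.6% lower. The median log2 change was -0.02 for the members and -0.04 for all genes tested.

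The change in the later interval differed from that in the earlier interval for 4 members, where 52.7% of all genes tested passed, 25.3% with a positive and 27.5% with a negative difference. The difference was positive for *OMD* (log2 1.40 ± 0.42, adjusted p = 0.01, edgeR). It was negative for *CHAD* (log2 -4.36 ± 0.35, adjusted p = 1.32e-07, edgeR), *EPYC* (log2 -3.01 ± 0.25, adjusted p = 1.81e-07, edgeR) and *FMOD* (log2 -1.08 ± 0.24, adjusted p = 0.00113, edgeR). In these fits *FMOD* rose more before day 30 and *OMD* more after it. These are total changes and not changes per day, since the later interval is the longer. The *OMD* difference did not pass without day 30 replicates 3 to 5 (log2 0.75, adjusted p = 0.42, edgeR) or with day 45 replicate 1 placed at day 30 (log2 0.13, adjusted p = 0.896, edgeR). For the other 6 members the adjusted p ran between 0.0939 and 0.951.

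**Figure D2:**
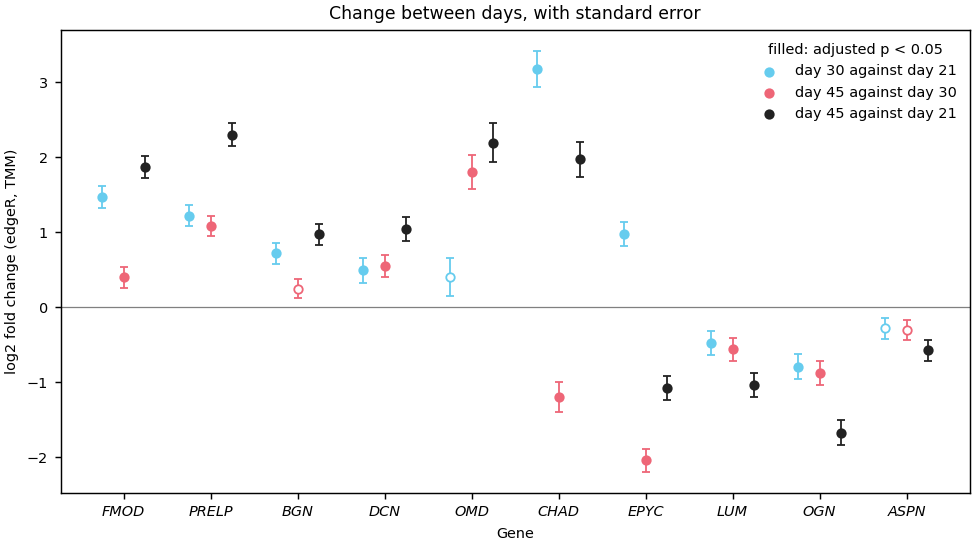
The log2 fold change of each gene (vertical axis; edgeR, TMM scaling) with its standard error for day 30 against day 21, day 45 against day 30 and day 45 against day 21; filled points passed an adjusted p of 0.05. *PRELP* and *DCN* are higher at both steps, *CHAD* and *EPYC* change sign, and *LUM* and *OGN* are lower at both steps.

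The scale matters most for the earlier step. On the log2(TPM + 1) scale the median of all genes tested was -0.35 at day 30 against day 21, and 16.5% of the calls were higher, against 50.1% of the calls with TMM. There *DCN* was at -0.03 (adjusted p = 0.878, limma), *BGN* at 0.23 (adjusted p = 0.0792, limma) and *OMD* at 0 (adjusted p = 0.995, limma); relative to that median they were at 0.32, 0.58 and 0.35. *ASPN* was called lower on that scale (log2 -0.71, adjusted p = 0.000558, limma). At day 45 against day 21 all 10 members were called on both scales with the same signs. Of all 17838 genes tested, 10869 were called there with TPM and 10284 with TMM. Of these calls 19.8% were higher with TPM, where the median of all genes was -0.34, and 47% with TMM.

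Levels of different genes were set side by side in TPM, a measure of transcript abundance that accounts for length and depth. At day 21 *EPYC* led at 1537 ± 146 TPM (SD, n = 4). It was followed by *BGN* at 1129 ± 27.5 TPM, *LUM* at 1081 ± 268 TPM, *FMOD* at 821 ± 59.9 TPM and *DCN* at 796 ± 140 TPM; among these, each gene from *BGN* on overlapped the next. The other 5 genes were far lower, with *OGN* at 114 ± 52.3 TPM, *PRELP* at 112 ± 14.1 TPM, *CHAD* at 67.2 ± 19.2 TPM, *ASPN* at 59.2 ± 15.1 TPM and *OMD* at 16.7 ± 8.63 TPM. Libraries of *OGN* and *PRELP*, and of *CHAD* and *ASPN*, overlapped. Compared within the same library, *LUM* exceeded *FMOD* in 4 of 4 and *CHAD* exceeded *ASPN* in 3. *BGN* exceeded *LUM* in 2, *FMOD* exceeded *DCN* in 2 and *OGN* exceeded *PRELP* in only 1.

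At day 30 *EPYC* had 2173 ± 454 TPM (SD, n = 5), *FMOD* 1655 ± 335 TPM and *BGN* 1340 ± 201 TPM, each overlapping the next. *DCN* had 776 ± 103 TPM, *LUM* 590 ± 161 TPM and *CHAD* 439 ± 93.9 TPM, again each overlapping the next. *PRELP* stood alone at 192 ± 36.8 TPM, above *OGN* (45.6 ± 10.7 TPM) and *ASPN* (35 ± 1.86 TPM), which overlapped, and *OMD* (16 ± 5.36 TPM). *CHAD* thus stood above *PRELP*, *OGN* and *ASPN* at day 30, whereas at day 21 it was below *OGN* and *PRELP* in mean. Compared within the same library at day 30, *FMOD* exceeded *BGN*, *DCN* exceeded *LUM* and *OGN* exceeded *ASPN* in 5 of 5. *EPYC* exceeded *FMOD* and *LUM* exceeded *CHAD* in 4 of 5.

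At day 45 *FMOD* led at 2213 ± 211 TPM (SD, n = 5), with no overlap with *BGN* at 1627 ± 175 TPM, which overlapped *DCN* at 1106 ± 235 TPM. *EPYC* stood next at 534 ± 133 TPM and overlapped *PRELP* at 408 ± 12.5 TPM, which overlapped *LUM* at 376 ± 53.4 TPM. *CHAD* had 195 ± 39.5 TPM and *OMD* 54.9 ± 11.1 TPM, above *ASPN* (28.8 ± 4.51 TPM) and *OGN* (26.4 ± 2.6 TPM), which overlapped. Compared within the same library, *BGN* exceeded *DCN* and *EPYC* exceeded *PRELP* in 5 of 5. *PRELP* exceeded *LUM* and *ASPN* exceeded *OGN* in 4 of 5.

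Together the 10 genes took 0.573%, 0.726% and 0.657% of all TPM at days 21, 30 and 45, with sums of 5735 ± 623, 7260 ± 1117 and 6569 ± 600 TPM (SD) that overlapped between days. The make-up of that sum changed more than its size. *FMOD* held 14.4 ± 0.659%, 22.7 ± 2.29% and 33.7 ± 0.51% of it. *EPYC* held 26.9 ± 1.63%, 29.8 ± 3.22% and 8.1 ± 1.65%, and *LUM* held 18.6 ± 2.69%, 8.05 ± 1.3% and 5.73 ± 0.748%. Shares sum to the whole, so they cannot move independently.

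**Figure D3:**
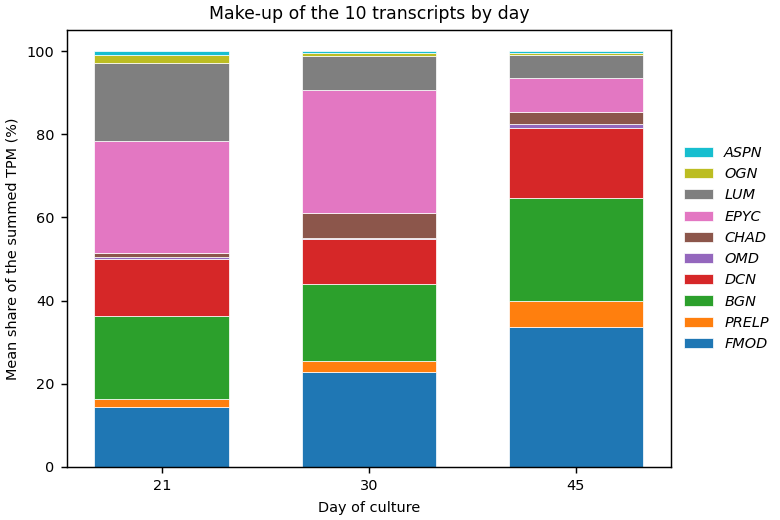
Mean share of each gene in the summed TPM of the 10 genes (vertical axis, %) at days 21, 30 and 45, as stacked bars over 4, 5 and 5 libraries. *FMOD* takes 33.7% at day 45 against 14.4% at day 21, and *EPYC* 8.1% against 26.9%.

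Of the members, 8 lie in 3 clusters on the genome, and the course of neighbours differed on chromosomes 12 and 9. On chromosome 12, all on the minus strand in GRCh38, are *EPYC* (chr12:90963679-91005026), *LUM* (chr12:91102629-91111831) and *DCN* (chr12:91140484-91183123), with 28.7 kb between *LUM* and *DCN*. The ratio of *DCN* to *LUM* in TPM was 0.748 ± 0.0732, 1.36 ± 0.253 and 3.01 ± 0.837 (SD) at days 21, 30 and 45. *KERA*, the keratocan gene between *EPYC* and *LUM*, had at most 0.23 CPM. So of 4 adjacent genes of the family, *DCN* rose, *LUM* fell, *EPYC* was highest at day 30 and *KERA* was near 0.

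On chromosome 9, also on the minus strand, are *OGN* (chr9:92383967-92404696), *OMD* (chr9:92414245-92424461) and *ASPN* (chr9:92456205-92482506), 9.5 and 31.7 kb apart. All 3 lie within the body of *CENPP*, on the other strand, without sharing exons with it. The ratio of *OMD* to *OGN* in TPM was 0.144 ± 0.00929, 0.345 ± 0.0388 and 2.11 ± 0.56 (SD) at days 21, 30 and 45, with no overlap between days. *OMD* therefore exceeded *OGN* at day 45 in every library and was below it in every library of days 21 and 30. *ECM2*, 11 kb beyond *ASPN*, averaged 0.667, 2.62 and 5.67 CPM and rose at day 45 against day 21 (log2 3.07 ± 0.28, adjusted p = 5.53e-08, edgeR).

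On chromosome 1 are *FMOD* (chr1:203340628-203351758, minus strand) and *PRELP* (chr1:203475828-203491352, plus strand), 124.1 kb apart. Both rose at each step, and their TPM ratio (*FMOD* over *PRELP*) was 7.36 ± 0.778, 8.67 ± 0.831 and 5.43 ± 0.541 (SD) at days 21, 30 and 45. *OPTC*, the opticin gene 2.8 kb from *PRELP*, had at most 0.118 CPM. The other two members stand apart from these clusters, *BGN* at chrX:153494939-153509554 and *CHAD* at chr17:50464496-50468966.

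**Figure D4:**
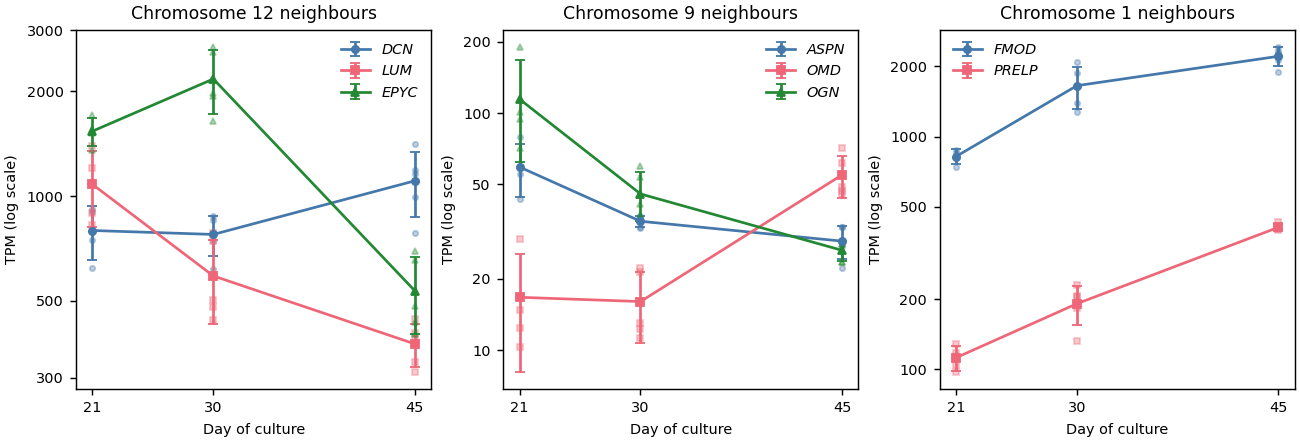
TPM (vertical axis, log scale) of the members that neighbour each other on chromosomes 12, 9 and 1 by day of culture, with every library as a small point and the mean and SD as large symbols and bars. *OMD* crosses *OGN* and *ASPN* between days 30 and 45, and *DCN* and *LUM* part after day 21, while *FMOD* and *PRELP* run the same way.

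Of 8 other genes of the family, *KERA*, *OPTC* and *NYX* were too low to test. Among the 5 tested, *ECM2* rose at day 45 against day 21, and *PODNL1* (podocan-like 1; 21.9 CPM at day 45, against 52.2 CPM at day 21; log2 -1.25 ± 0.16, adjusted p = 2.48e-06, edgeR) and *PODN* (podocan; 2.86 against 9.83 CPM; log2 -1.78 ± 0.24, adjusted p = 7.6e-06, edgeR) fell. *TSKU* (tsukushi) and *CHADL*, the closest relative of *CHAD*, did not pass over that span with TMM scaling, at log2 0.21 and -0.26. On the log2(TPM + 1) scale *CHADL* was called lower (log2 -0.78, adjusted p = 0.000663, limma), where the median of all genes was -0.34. The count of these 8 genes that rose was 2 with no filter on low counts or with only the 2 days fitted. It was also 2 with a replicate block or with the length and GC offset. *CHADL* had 120 ± 19.1, 229 ± 55.6 and 101 ± 23.4 CPM (SD) at days 21, 30 and 45. Like *CHAD*, it rose at day 30 against day 21 (log2 0.93 ± 0.19, adjusted p = 0.000482, edgeR) and fell at day 45 against day 30 (log2 -1.19 ± 0.17, adjusted p = 2.96e-05, edgeR). Exons of *CHADL* overlap those of *L3MBTL2* on the other strand, and exons of *PODNL1* those of *DCAF15*, so their reads cannot be told apart where they overlap.

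The genes whose course over the 14 libraries was nearest to each member's were found by the root mean square difference of centred log2 CPM, among 9046 genes with a mean of at least 10 CPM. For *BGN* these were *B4GALT7* (0.10), *MOGS* (0.12) and *RNH1* (0.12), and for *DCN* they were *OPTN* (0.12), *PTTG1IP* (0.17) and *LOXL3* (0.18). For *FMOD* they were *SDC4* (0.18), *B4GALT4* (0.19) and *HTRA3* (0.19), and for *PRELP* they were *BAG3* (0.16), *P4HA2* (0.16) and *SH3KBP1* (0.17). *LUM* was nearest to *FAM120C* (0.14), *PRRX1* (0.14) and the pseudogene *GTF2IP4* (0.15), whose reads may be shared with its copies. *OGN* was nearest to *PROS1* (0.17), *TSPAN6* (0.20) and *FAM13B* (0.23), and *ASPN* to *TMBIM4*, *SLC29A1* and *SMIM10L1* (0.16 each).

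For the members with a peak or a late rise, the nearest genes lay at larger differences, but so did the median gene. *EPYC* was nearest to *CNMD* (0.20), the chondromodulin gene and one of the chondrocyte markers, then *NLGN3* (0.27) and *TACC3* (0.30). *CHAD* was nearest to *SCUBE2* (0.24), *S100A1* (0.29) and *MYL3* (0.37), and *OMD* to *SESN1* (0.23), *STK38L* (0.27) and *SGMS2* (0.31). The median difference over all 9046 genes ran between 0.46 and 1.36 depending on the member. Between members, *DCN* and *BGN* were closest, at 0.26.

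With TMM scaling, genes that build the sulphated chains of these proteins rose more often than they fell at day 45 against day 21, where all genes tested gave 27.1% higher and 30.5% lower. Of 6 genes for the linker that joins a chain to the protein, 4 rose and 1 fell (median log2 0.81). These included *XYLT2* (log2 1.37 ± 0.12, adjusted p = 3.7e-08, edgeR) and *XYLT1* (log2 1.66 ± 0.20, adjusted p = 1.69e-06, edgeR), the xylosyltransferases that begin a chain. *B4GALT7*, which adds the next sugar, rose (log2 0.92 ± 0.10, adjusted p = 3.78e-07, edgeR), and *B3GALT6*, which adds the one after, fell (log2 -0.68 ± 0.10, adjusted p = 1.65e-05, edgeR).

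Of 15 tested genes for chondroitin and dermatan sulphate, 6 rose and 2 fell (median log2 0.06). *CHST3*, a chondroitin 6-O-sulphotransferase, had 710 CPM at day 45, against 113 CPM at day 21 (log2 2.65 ± 0.16, adjusted p = 3.9e-10, edgeR). *CHSY1* and *CHPF*, which lengthen the chain, rose (log2 1.80 and 1.12), as did the 4-O-sulphotransferase *CHST11* (log2 1.72). The epimerase genes for dermatan sulphate, *DSE* and *DSEL*, and the sulphotransferase gene *CHST14* did not pass with TMM scaling (log2 -0.04, -0.23 and -0.03) but were called lower on the log2(TPM + 1) scale (log2 -0.49, -0.51 and -0.47, where the median of all genes was -0.34); these 3 were chosen for their role after their values were seen. Of 8 genes for keratan sulphate, 5 rose and 0 fell (median log2 0.66), among them *B4GALT4* (112 CPM at day 45, against 35.7 CPM at day 21; log2 1.65 ± 0.10, adjusted p = 2.07e-10, edgeR), *B4GALT1* (log2 1.36) and *B3GNT7* (log2 1.47), which lengthen the chain, and *FUT8* (log2 0.86), a fucosyltransferase of N-linked glycans. On the TPM scale 7 chondroitin and dermatan sulphate genes and 2 keratan sulphate genes fell. The keratan sulphate count that fell was also 2 without day 45 replicate 3 or without day 30 replicates 3 to 5. It was 1 with a filter of 1 CPM in 4 libraries or with only the 2 days fitted. Leaving out any 1 of day 30 replicates 1 and 4 and day 45 replicate 4 also gave 1.

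Of 6 genes for tyrosine sulphation and the sulphate donor, 4 rose and 1 fell (median log2 0.62). *PAPSS2*, which makes the sulphate donor in cartilage, had 2054 CPM at day 45, against 329 CPM at day 21 (log2 2.64 ± 0.19, adjusted p = 2.75e-09, edgeR). The tyrosine sulphotransferases *TPST2* (log2 0.97 ± 0.12, adjusted p = 1.31e-06, edgeR) and *TPST1* (log2 0.73 ± 0.10, adjusted p = 1.08e-05, edgeR) rose, and so did the donor's Golgi transporter *SLC35B2* (log2 0.52 ± 0.11, adjusted p = 0.000421, edgeR). The 1 that fell, *SLC35B3*, named here after its value was seen, did not pass without day 21 replicate 3, with day 45 replicate 1 placed at day 30 or with a replicate block, each of which left 0 genes that fell.

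Of 13 collagen genes, 7 rose and 2 fell (median log2 0.54), but 4 rose and 5 fell on the TPM scale, and 4 fell without day 30 replicates 3 to 5. *COL2A1*, the main cartilage collagen, had 167060 CPM at day 45, against 29899 CPM at day 21. *COL6A1* and *COL6A3*, collagen VI genes whose product binds decorin and biglycan, rose (log2 1.15 ± 0.13, adjusted p = 6.35e-07, and log2 1.35 ± 0.16, adjusted p = 1.36e-06, edgeR). *COL14A1*, of a fibril-associated collagen that binds decorin, fell (log2 -1.82 ± 0.21, adjusted p = 1.51e-06, edgeR).

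Of 13 tested genes for growth factors and receptors that bind members of the family, 4 rose and 7 fell (median log2 -0.54). *BMP4* fell to 5.37 CPM at day 45, against 28.7 CPM at day 21 (log2 -2.42 ± 0.10, adjusted p = 9.18e-12, edgeR). *TGFB3* and the decorin receptor gene *EGFR* fell (log2 -1.41 and -1.58), and *TGFB1* rose (log2 0.97 ± 0.12, adjusted p = 2.68e-06, edgeR).

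Of 9 genes for proteases that cut these proteins, 3 rose and 6 fell (median log2 -1.19). The count that rose was 1 on the TPM scale and with no filter on low counts. It was also 1 when any 1 of day 21 replicates 1 and 2 and day 45 replicates 1 and 2 was left out. Placing day 45 replicate 1 at day 30 gave 1 as well. *MMP2*, a gelatinase, fell to 381 CPM at day 45, against 1704 CPM at day 21 (log2 -2.16 ± 0.14, adjusted p = 8.97e-10, edgeR). *HTRA1*, a serine protease, fell to 197 CPM, against 636 CPM (log2 -1.69 ± 0.13, adjusted p = 7.76e-09, edgeR). *MMP9* fell to 0.593 CPM, against 175 CPM (adjusted p = 4.95e-09, edgeR), while *MMP3*, stromelysin, rose to 10.4 CPM, against 0.101 CPM (adjusted p = 9.08e-10, edgeR).

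**Figure D5:**
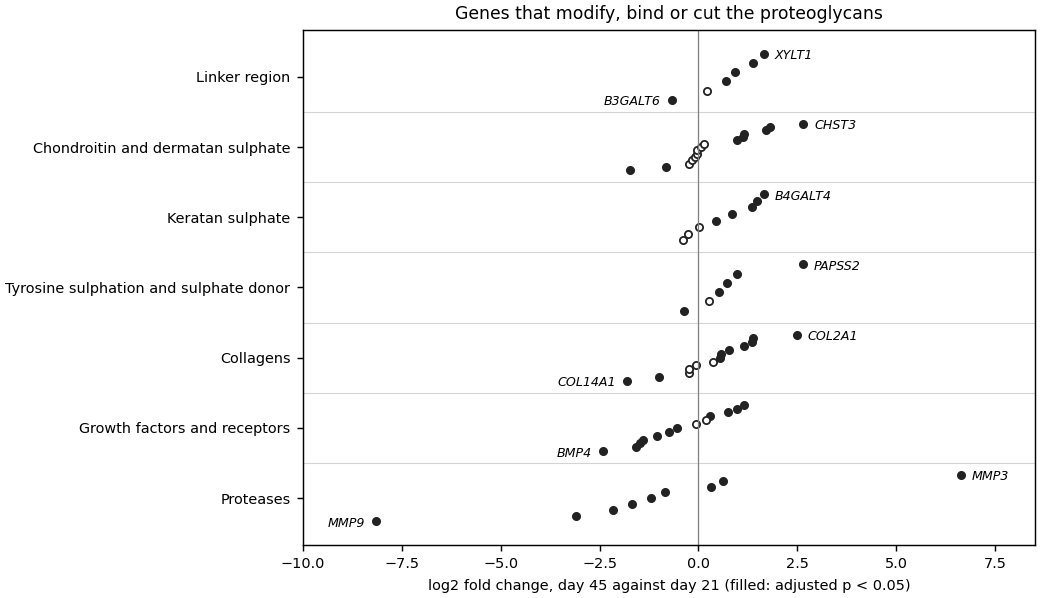
The log2 fold change at day 45 against day 21 (horizontal axis; edgeR, TMM scaling) of every tested gene in 7 lists of enzymes, partners and proteases of the family (rows), with filled points at an adjusted p below 0.05. *CHST3* and *PAPSS2* are farthest to the right among the enzymes, and 6 of the 9 protease genes are left of 0.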

How the data were processed

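Total RNA of whole pellets was extracted with an RNeasy micro kit and made into libraries with the TruSeq RNA v2 kit, per the labels' protocols. The authors aligned reads with STAR 2.4.2a to GRCh38 and quantified genes with RSEM 1.2.25, per the submitters' processing notes. The deposited tables give, per gene, an expected count, which need not be whole, TPM, and a mean transcript length, per the file headers; the authors' FPKM column, per the file headers, was not used. Symbols came from a table of gene names, and 58400 of 60587 identifiers were in GENCODE 29.

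Expected counts were rounded to whole numbers, filtered with filterByExpr, scaled by TMM and fitted over all 14 libraries with edgeR 4.0.16 (R 4.3.3, robust quasi-likelihood, day as the factor). P-values were adjusted over 17838 genes by Benjamini-Hochberg, and a gene was called below 0.05. CPM were computed from the TMM-scaled library sizes. The SE of a log2 change comes from the fit. Alternatives were limma 3.58.1 on log2(TPM + 1) and log2(TPM + 0.1), DESeq2 1.42.0, its size factors, other filters, an offset for transcript length and GC content (98.7% of genes), each library left out, a replicate block, and the libraries named above left out or moved. The fit was tested on simulated data.

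The members and lists were chosen with earlier results of these data known. From each list of enzymes, partners and proteases, up to 4 genes with the smallest adjusted p at day 45 against day 21 were named. For likeness, a prior count of 2 was used and the 3 nearest genes were kept, clone names left out. Same-numbered replicates were not treated as pairs. Replicates of a day differed by more than sampling noise in all 26 pairs (chi-square per degree of freedom between 7.96 and 174.25). With at least 18183776 counts per library, 1 CPM stands for many counts. Error bars of levels show the SD between libraries, and those of log2 changes show the SE of the fit.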

Additional observations from a re-analysis of the deposited data

How the results depend on the processing

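At day 45 against day 21, every log2 change of the 10 members kept its sign and its side of the threshold in all 250 values under the alternatives. At day 30 against day 21, 231 of 250 values did, and at day 45 against day 30, 233 of 250. The contrast of the later against the earlier step kept 94 of 96 values, taken only from the 4 members that passed it. Values of the other 6 members were not counted there. Without single libraries, the genes called ran between 8768 and 9938 at day 30 against day 21, 9335 and 10460 at day 45 against day 21, 9031 and 10235 at day 45 against day 30, and 8262 and 9623 for the contrast; the members called ran between 7 and 9, 10 and 10, 7 and 9, and 4 and 5 in that order.

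Without day 30 replicates 3 to 5, 5 members (8 with them) and 7645 genes (9696 with them) were called at day 30 against day 21. In the contrast, 5659 genes (9404 with them) were called. With day 45 replicate 1 placed at day 30, 6466 genes were called at day 45 against day 30, against 10051. On the TPM scale *DCN* at day 30 against day 21 was at -0.03 with either pseudocount, and *OMD* was at 0 with a pseudocount of 1. Leaving out 1 library kept between 6 and 10 members at their TPM rank at day 21 (6 without replicate 1 or 2) and 10 at the later days. The cause was not tested.

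Same-numbered samples did not deviate together (13 pairs, correlations between -0.25 and 0.12, 1 above 0.1). With a replicate block, 8872, 9519, 9728 and 8632 genes were called for the earlier step, the later step, the whole span and the contrast, with 7, 8, 10 and 4 members; *LUM* at day 30 against day 21 was at -0.42 (adjusted p = 0.0653, edgeR). Between 4 and 5 libraries a day and 1 cell line limit all statements.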
